A study of Mus musculus with 6 samples.

Results

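The genes described here encode the proteins of elastic fibres and of the microfibrils on which those fibres are built. The group was fixed as 10 named genes: Eln, Fbn1, Fbn2, Fbln1, Fbln2, Fbln5, Efemp2, Emilin1, Mfap2 and Mfap4. Every probe set annotated with exactly 1 gene symbol from that group was taken, which gave 16 of the 45037 probe sets on the array and 8 of the 18193 genes named there. Fbn1 and Efemp2 were not analysed here. Transcripts were measured in PICs and in satellite cells of C57 black 6 mice aged 7 to 9 days, with 3 one-colour arrays for each population, called biological replicates 1 to 3 in the labels. Both populations came from the same kind of tissue, enzymatically digested hindlimb muscle, and were sorted by CD34 and Sca1. No genotype, transgene or treatment beyond digestion and sorting is given for either population, and the labels do not say how many animals went into a sample. PICs are cells of the muscle interstitium, named for the product of Peg3 that they carry. Satellite cells lie under the basal lamina of muscle fibres and serve as their stem cells.

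An elastic fibre consists of a core of cross-linked elastin laid onto a scaffold of microfibrils, which are polymers of fibrillins. Microfibril-associated proteins decorate that scaffold, fibulins bind tropoelastin and guide its deposition, and emilins lie where the core meets the microfibrils. In many tissues these proteins are made by fibroblasts and smooth muscle cells, and microfibrils also hold growth factors of the TGF-beta and BMP families in the matrix.

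Deposited values were linear intensities with a median of 10 on every array, and they were taken to log2. Pearson correlations over 10855 genes were 0.956 to 0.986 within a population and 0.800 to 0.850 between populations. The sorts were checked on marker lists. Of 10 satellite cell markers, 10 were lower in PICs, with a median log2 difference of -4.87. Of 10 markers of interstitial mesenchymal progenitors, 9 were higher in PICs, with a median of 2.88, and Col15a1, named after its value was seen, was not called at 0.51. The 9 include Cd34 (1.92), whose product was used for the sort, so that Cd34 is no independent check. All 10 satellite cell markers still lay above the low value level, a log2 value of 4 (intensity 16), on every PIC array, and their summed intensity was 5002 to 6732 on PIC arrays and 44210 to 50430 on satellite arrays.

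Elastic fibre and microfibril genes were higher in PICs, with Eln itself as the exception. Of the 16 probe sets, 13 passed the filter on low values, a log2 value above 4 on at least 3 of the 6 arrays. Calls needed an adjusted p under 0.05 together with a log2 difference of at least 1, in limma with Benjamini-Hochberg adjustment over the 18433 probe sets tested. By that rule limma called 10 of the 13 higher in PICs and 0 lower, and 0 were lower at an unadjusted p under 0.05, since all 13 differences lay above 0. Over all probe sets tested 15.1% were called higher in PICs and 12.8% lower in PICs, 27.9% in all. The median log2 difference of the 13 was 2.26, and over all probe sets tested it was -0.07. The PIC arrays lay wholly above the satellite arrays for 11 of the 13, against 27.7% of all probe sets tested. The 10 calls covered 7 of the 8 genes, and the probe sets not called were both of Eln and 1 of Emilin1. In sorted bulk samples, fewer cells of a type and less RNA per cell cannot be told apart.

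**Figure D1:**
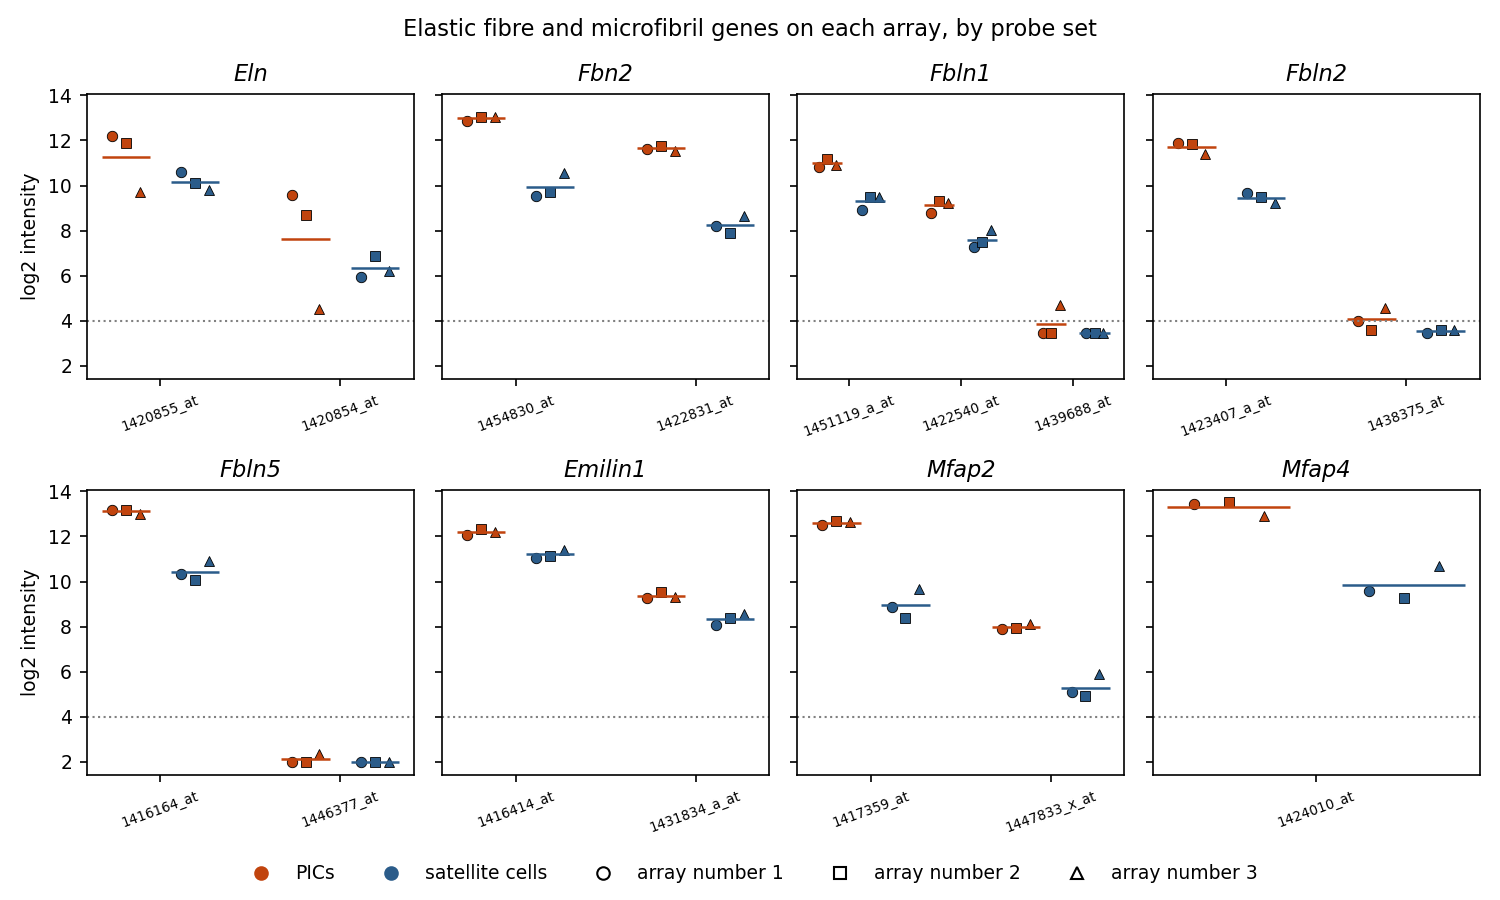
Log2 intensity on the y axis for each of the 16 probe sets of the 8 genes, with PICs in orange to the left of satellite cells in blue; symbols give the array number, short lines the mean of 3 arrays, and the dotted line the low value level of 4. PIC arrays lie above satellite arrays in 11 of the 13 probe sets that passed the filter. On both Eln probe sets the PIC array of number 3 lies below all satellite arrays.

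Fibrillins form the backbone of microfibrils, and Fbn2 encodes the fibrillin known above all from developing tissues. On probe set 1454830_at, Fbn2 had intensities of 7384, 8508 and 8566 in PICs, against 748, 849 and 1519 in satellite cells. The lowest PIC array thus exceeded the highest satellite array, and the satellite array of number 3 stood above the other satellite arrays. The fitted log2 difference was 3.04 ± 0.28 (SE), or 8.23-fold (limma, adjusted p = 0.000391). Another probe set of Fbn2, 1422831_at, had 3200, 3493 and 2959 in PICs and 294, 239 and 403 in satellite cells, a difference of 3.40 (limma, adjusted p = 0.000147). The 2 probe sets of Fbn2 therefore gave differences whose 95% intervals overlapped, 2.37 to 3.72 and 2.89 to 3.90.

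Mfap2 encodes a small glycoprotein that binds fibrillins along the microfibril. Its probe set 1417359_at had intensities of 5773, 6516 and 6389 in PICs and 463, 329 and 812 in satellite cells. The difference of 3.64 ± 0.32 (SE), or 12.5-fold, was the largest of the 13 (limma, adjusted p = 0.000363). PIC values kept within a narrow band while satellite values spread more widely, with SDs of 0.09 and 0.66 on the log2 scale (n = 3 each). Probe set 1447833_x_at of Mfap2, whose suffix marks possible hybridisation to related transcripts, had 237, 248 and 275 in PICs against 34, 30 and 59 in satellite cells. Its difference of 2.69 was smaller than that of the other Mfap2 probe set, with a 95% interval of 2.04 to 3.34 (limma, adjusted p = 0.000487).

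Mfap4 encodes a fibrinogen-related protein of microfibrils that binds elastin. Its probe set 1424010_at had intensities of 11159, 11668 and 7745 in PICs, against 762, 619 and 1650 in satellite cells. The PIC array of number 3 was the lowest of its population and the satellite array of number 3 the highest of its own, yet the populations did not overlap. The difference was 3.45 ± 0.39 (SE), or 10.9-fold (limma, adjusted p = 0.00079).

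Of the 3 fibulin genes in the group, Fbln5 had the largest difference. Its product binds tropoelastin, lysyl oxidase-like enzymes and integrins, and mice that lack it have disorganised elastic fibres. On probe set 1416164_at, intensities were 9367, 9326 and 8098 in PICs and 1297, 1059 and 1931 in satellite cells. The difference was 2.69 ± 0.23 (SE), or 6.44-fold (limma, adjusted p = 0.00034). Probe set 1446377_at of Fbln5 lay at 4 or 5 on every array and did not pass the filter, so that it carries no measured level.

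Fbln2, a fibulin of basement membranes and elastic tissue, had intensities of 3795, 3685 and 2730 in PICs and 806, 725 and 590 in satellite cells on probe set 1423407_a_at. All PIC arrays lay above all satellite arrays, with a difference of 2.26 ± 0.19 (SE), or 4.80-fold (limma, adjusted p = 0.000305). Probe set 1438375_at of Fbln2 lay between 11 and 24 and did not pass the filter; its values above 16 were confined to the PIC array of number 3.

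Fbln1, which binds fibronectin, laminin and proteoglycans besides elastin, differed less. Probe set 1451119_a_at had 1797, 2348 and 1949 in PICs and 483, 722 and 721 in satellite cells, a difference of 1.68 ± 0.20 (SE), or 3.20-fold (limma, adjusted p = 0.00104). Probe set 1422540_at of Fbln1 had 441, 643 and 606 in PICs, against 153, 181 and 258 in satellite cells, a difference of 1.53 (limma, adjusted p = 0.00297). Neither probe set showed an overlap between the populations. On probe set 1439688_at, Fbln1 had intensities of 11, 11 and 26 in PICs and 11 on each satellite array, and it did not pass the filter.

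Emilin1 encodes a glycoprotein of the interface between elastin and microfibrils that also binds pro-TGF-beta. Its probe set 1416414_at had 4251, 5149 and 4772 in PICs and 2137, 2256 and 2729 in satellite cells. Its probe set 1431834_a_at had 608, 733 and 644 in PICs and 269, 335 and 377 in satellite cells. The PIC arrays lay above the satellite arrays on both, with differences of 0.996 and 1.03 (limma, adjusted p = 0.002 and 0.00288). The 2-fold threshold falls between these values, so that 1 probe set was called and the other was not. Without PIC replicate 2 the called probe set was at 0.95, and without satellite replicate 1 at 0.89, under that threshold. Without PIC replicate 1 the other probe set was at 1.07, and without satellite replicate 3 at 1.10, past it.

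**Figure D2:**
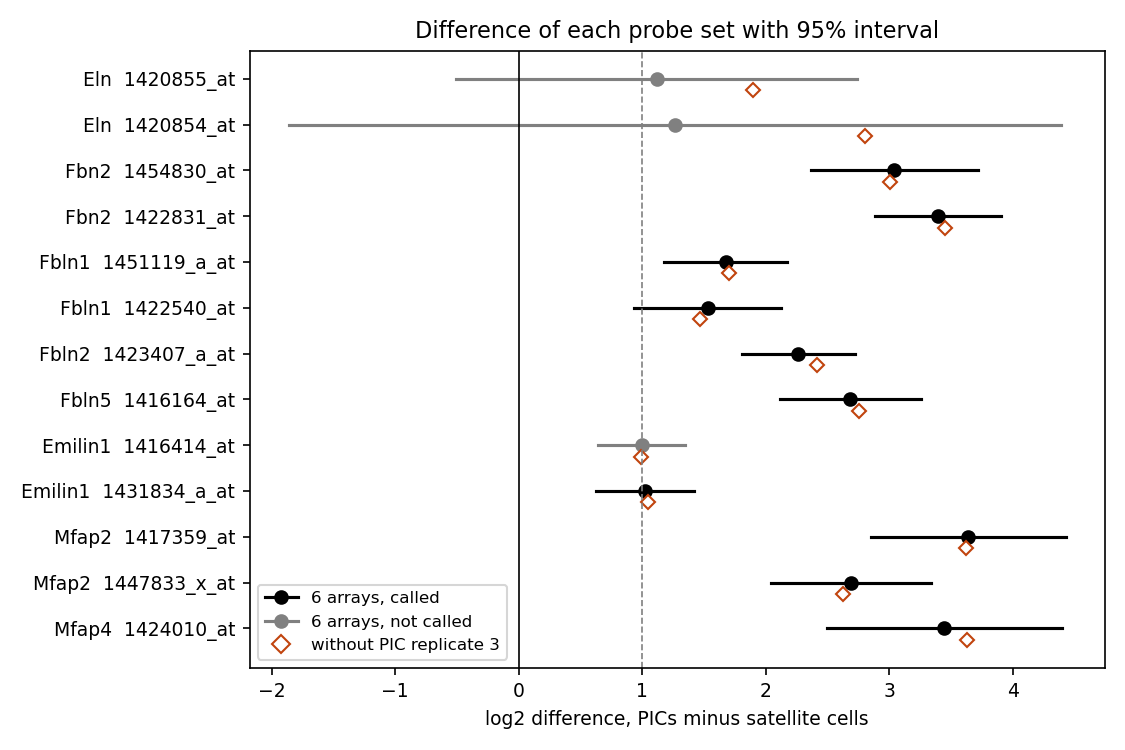
Log2 difference, PICs minus satellite cells, on the x axis for the 13 probe sets that passed the filter; circles with bars are the fit on 6 arrays with its 95% interval, black where called and grey where not, diamonds are the fit without PIC replicate 3, and the dashed line marks a difference of 1. Both Eln probe sets have intervals that include 0 and move to 1.90 and 2.81 without PIC replicate 3, while the called probe sets lie between 1.03 and 3.64.

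Promoter sequence is shown for Mfap2 and Fbln5, which had the largest differences among the genes with an entry in the promoter table, and for Emilin1, which had the smallest. The bases are the 250 upstream of an annotated start, from RefSeq on build GRCm38.p6, 5′ to 3′ on the strand of the gene, and capitals mark the GC box. The window of Mfap2 is chr4:141010431-141010680 on the plus strand, that of Fbln5 chr12:101819120-101819369 on the minus strand and that of Emilin1 chr5:30913536-30913785 on the plus strand.
Mfap2: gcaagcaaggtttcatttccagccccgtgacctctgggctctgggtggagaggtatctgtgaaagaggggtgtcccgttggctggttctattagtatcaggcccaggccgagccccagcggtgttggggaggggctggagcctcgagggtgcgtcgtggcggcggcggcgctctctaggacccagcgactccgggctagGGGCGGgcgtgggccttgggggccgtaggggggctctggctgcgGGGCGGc
Fbln5: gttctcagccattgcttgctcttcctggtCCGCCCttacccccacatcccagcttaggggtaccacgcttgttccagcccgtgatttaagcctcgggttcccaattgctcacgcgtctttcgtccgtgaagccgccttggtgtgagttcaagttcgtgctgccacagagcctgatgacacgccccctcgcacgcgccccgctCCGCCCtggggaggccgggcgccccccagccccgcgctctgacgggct
Emilin1: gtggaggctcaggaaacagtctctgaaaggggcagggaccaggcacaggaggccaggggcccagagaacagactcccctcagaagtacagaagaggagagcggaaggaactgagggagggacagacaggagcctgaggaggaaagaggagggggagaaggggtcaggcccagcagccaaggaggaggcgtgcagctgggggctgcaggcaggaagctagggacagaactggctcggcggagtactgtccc

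The motifs were searched on both strands: the GC box GGGCGG, the TATA box TATAAA and the AP-1 site TGANTCA, none of which overlaps another in these windows. The windows of Mfap2 and Fbln5 held 2 GC boxes each, and that of Emilin1 held 0. At least 1 GC box was present in 32.7% of all 32851 promoter windows of the same length. The table matched 5 of the 8 genes with 8 windows, of which 4 held a GC box. None of these 8 windows held TATAAA or TGANTCA, which were present in 12.4% and 6.75% of all windows. A second annotated start of Mfap2 and of Fbln5 had no GC box in its window. These matches describe letters in a window only.

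Eln, which encodes tropoelastin, the monomer of the elastic core, was the gene for which the populations overlapped. On probe set 1420855_at it had intensities of 4686, 3846 and 839 in PICs, against 1533, 1093 and 881 in satellite cells. PIC arrays 1 and 2 lay above every satellite array, and PIC array 3 lay below all of them. Probe set 1420854_at had 772, 418 and 23 in PICs and 62, 118 and 73 in satellite cells, with the same order for PIC array 3. The differences were 1.12 (95% interval -0.50 to 2.74) and 1.27 (95% interval -1.86 to 4.39), and neither was called (limma, adjusted p = 0.211 and 0.452). The SD of Eln among PIC arrays was 1.36 and 2.71 on the log2 scale, against 0.40 and 0.48 among satellite arrays (n = 3 each). Without PIC replicate 3 the differences were 1.90 and 2.81 and both were called (limma, adjusted p = 0.00356 and 0.00346), with 2 arrays left for PICs.

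Markers of several other cell types, those of vessels among them, were also low on PIC array 3. All 10 endothelial markers had their lowest value of the 6 arrays there, where 17.7% of all genes tested had theirs. Their summed intensity was 7214, 5086 and 2078 in PICs, against 5183, 3817 and 3681 in satellite cells. Of these markers 8 of 10 lay above the low value level on PIC array 3 and 10 of 10 on each other array, with Tie1 and Flt1 at that level. Smooth muscle cells make elastin in vessel walls. Of 10 markers of smooth muscle and pericytes, 6 had their lowest value of the 6 arrays on PIC array 3. Of 10 interstitial progenitor markers, 0 did. Those called higher in PICs could not, since all their PIC arrays lay above all satellite arrays. Among the PIC arrays alone, array 3 was lowest for 10 of 10 smooth muscle and pericyte markers and 7 of 10 interstitial progenitor markers. The smooth muscle and pericyte markers summed to 23820, 16520 and 9380 in PICs and 36890, 32780 and 33260 in satellite cells. Acta2 was the highest of them on each satellite array, with log2 levels of 14.33, 14.36 and 14.24, and weighs most in those sums. Of the 9 tested, 1 was called higher in PICs, 2 higher in satellite cells and 6 in neither direction. Among those tested, Myh11, the smooth muscle myosin, had the largest SD over the PIC arrays. Its log2 levels were 8.91, 7.73 and 3.70 in PICs, against 8.76, 7.23 and 6.57 in satellite cells. Interstitial progenitor markers summed to 108800, 108200 and 99960 in PICs, a narrower range, and to 28380, 27500 and 35660 in satellite cells. Cartilage markers summed to 4601, 2229 and 1014 in PICs and 9458, 2974 and 1624 in satellite cells. Schwann cell markers summed to 12640, 5349 and 2029 in PICs and 10380, 3655 and 4654 in satellite cells, with 5 of 6 genes above the low value level on each PIC array and 4 of 6 on each satellite array. Markers of blood-derived immune cells summed to 2698, 352 and 123 in PICs and 3613, 217 and 153 in satellite cells, with 9, 5 and 3 of 10 genes above that level on arrays 1, 2 and 3 of either population. The endothelial, cartilage and immune sums were thus lowest on array 3 in both populations. Eln was likewise lowest there in both populations on probe set 1420855_at, but on probe set 1420854_at in PICs alone. Tendon markers summed to 20070, 23300 and 19220 in PICs, a narrower range, and to 17850, 11950 and 18460 in satellite cells. Thbs4, the highest of them in PICs, had log2 levels of 13.40, 13.69 and 13.90 there. Yet 6 of the 8 tendon markers had their lowest value of the 6 arrays on PIC array 3. On that array 5 of 8 lay above the low value level, against 7 of 8 on each other array. The part of these cells in the Eln values was not tested.

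**Figure D3:**
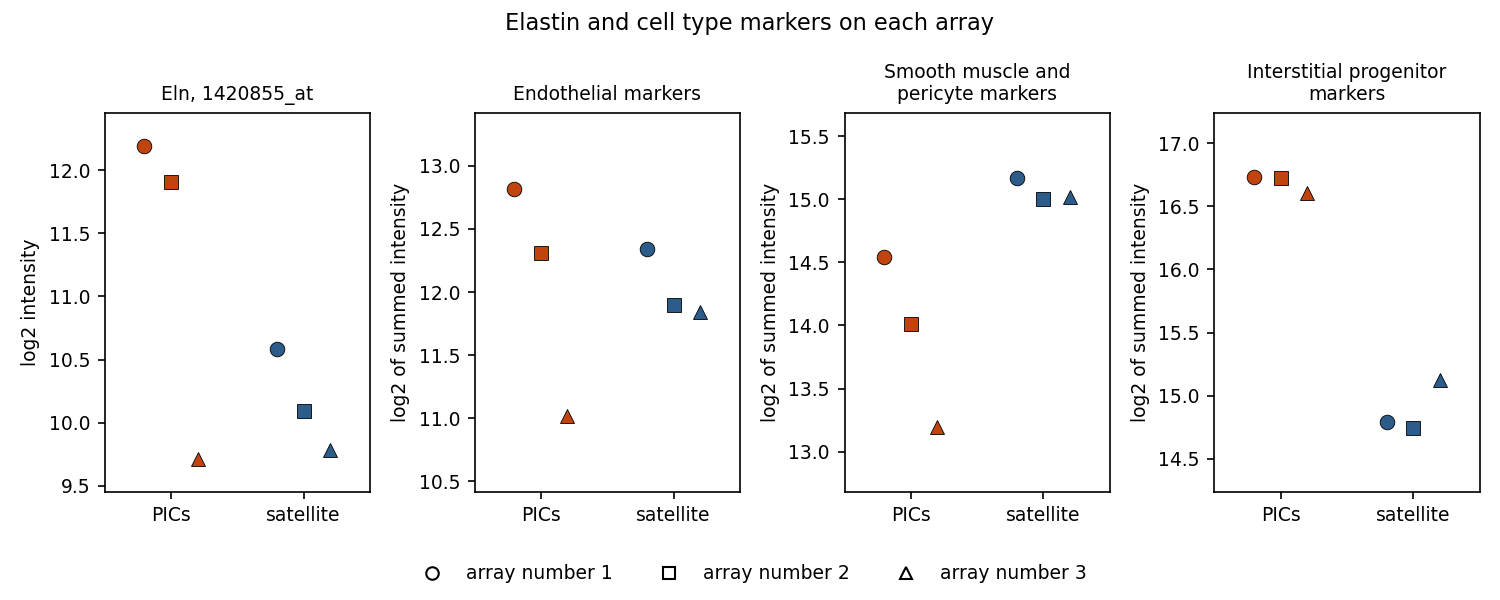
Log2 intensity of Eln on probe set 1420855_at and log2 of the summed intensity of 10 endothelial, 10 smooth muscle and pericyte, and 10 interstitial progenitor markers on the y axes, by array, with PICs left of satellite cells and symbols for the array number; each panel spans 3 log2 units. PIC array 3 is the lowest array for Eln and for the endothelial and mural sums, whereas all PIC arrays lie above the satellite arrays for the interstitial sum.

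The genes whose centred log2 profiles over the 6 arrays lay nearest to that of Eln were Src, Hspg2 and Atf7, outside the group. The root mean square distance was 0.26 for Src, 0.28 for Hspg2 and 0.31 for Atf7, on the log2 scale. Hspg2 lay at 10.69, 10.80 and 8.93 in PICs and at 9.94, 9.13 and 8.94 in satellite cells. Each of the 3 had its PIC array 3 within or below the range of the satellite arrays. A profile with PIC arrays 1 and 2 above every satellite array, and PIC array 3 not, was found in 433 of 10855 genes (3.99%).

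Differences taken between arrays of equal number were smallest at number 3 for all 13 probe sets that passed the filter. Of all probe sets called higher in PICs, 50.9% had their smallest difference at number 3, and of all probe sets tested, 37.9%. For Mfap4 the differences were 3.87, 4.24 and 2.23 at numbers 1, 2 and 3, and for Fbln2 they were 2.24, 2.35 and 2.21. For Eln on probe set 1420855_at they were 1.61, 1.82 and -0.07, the sign being turned at number 3. The probe sets share these 6 arrays and are not independent of each other. The interstitial markers, which summed highest on satellite array 3 as given above, moved with this pattern, and their part was not tested. Of those markers Clec3b lay under the low value level on all satellite arrays, at 3.32, 2.81 and 2.81, and Osr1 lay under it on satellite arrays 1 and 2, at 3.81 and 2.58, and above it on satellite array 3, at 4.32. Without both arrays numbered 3, an alternative added after the data were seen, 13 of 13 probe sets were called higher in PICs. Of all 18433 probe sets tested, 2858 were then called higher in PICs. The arrays left out were those with the smallest differences for these 13, so the count is no independent support.

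**Figure D4:**
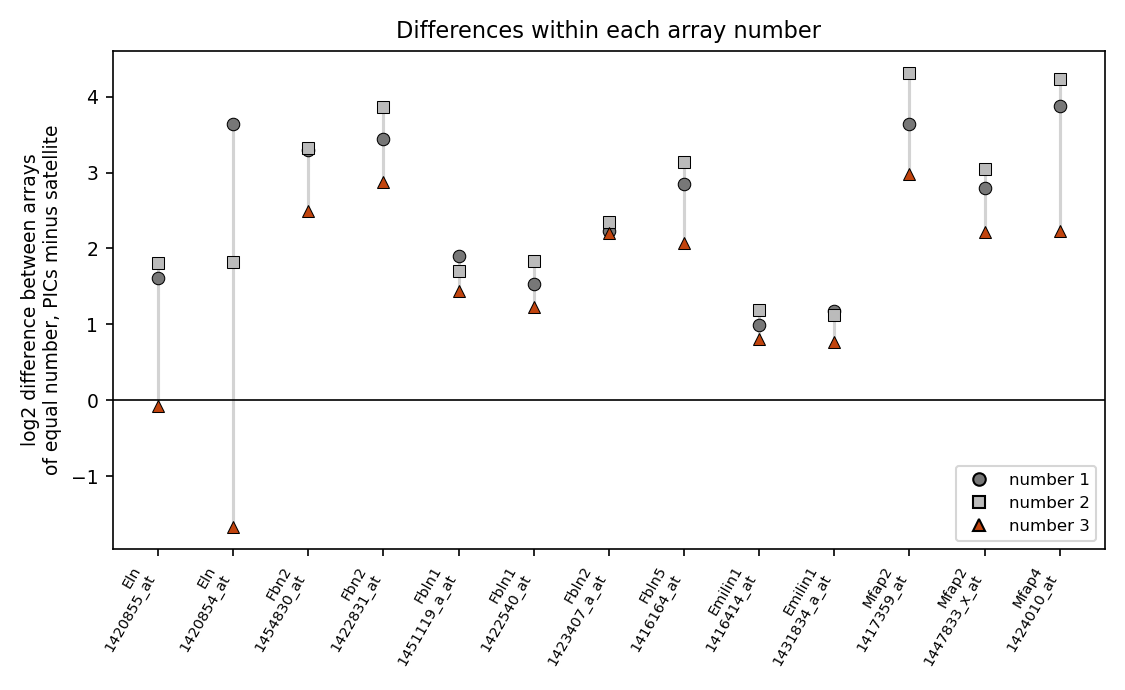
Log2 difference between the PIC array and the satellite array of equal number on the y axis, for the 13 probe sets that passed the filter; circles, squares and triangles are numbers 1, 2 and 3. The triangle is the lowest symbol in every column and lies below 0 for both Eln probe sets.

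Members were also set against each other as a ratio within each array. The size of such a ratio depends on the probe sets used, so only its difference between the populations was compared. The log2 ratio of Fbln5 to Fbln1 was 2.38, 1.99 and 2.05 in PICs and 1.43, 0.55 and 1.42 in satellite cells. It was 1.01 higher in PICs without overlap between the populations (exact permutation test, two-sided, p = 0.1, the smallest that 3 arrays against 3 allow, and 0.4 after adjustment over 4 ratios). The ratio of Fbln1 to Fbln2 differed by -0.59 between PICs and satellite cells (exact permutation test, p = 0.3, adjusted 0.6). The ratios of Mfap2 to Mfap4 and of Eln to Emilin1 differed by 0.19 and 0.12, with overlap between the populations (exact permutation test, p = 0.6 and 0.9, adjusted 0.8 and 0.9). No ratio passed 0.05, which this design cannot reach, so these values do not show that any pair changed alike.

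Other genes of elastic fibre biology were taken with 1 probe set per gene, the passing one of highest mean. Of 56 with a named probe set, 6 did not pass the filter. Of the 50 tested, 31 were called higher in PICs, 2 lower in PICs and 17 in neither direction. The 31 include Adamtsl2, Adamtsl5 and Itga9, which passed the filter through PICs alone. Over all 10855 genes 16.6% were called higher in PICs and 13% lower in PICs. The median log2 difference of the 50 was 1.93, or 1.78 with genes measured in PICs alone at their bounds, against -0.04 over all genes. By the same choice of probe set 6 of the 8 members were called higher in PICs.

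Relatives of the members and proteins bound to microfibrils were called higher in PICs in 11 of 14 genes, and limma called 0 lower (0 at an unadjusted p under 0.05), with a median log2 difference of 2.63. Mfap5, a microfibril-associated glycoprotein related to Mfap2, had log2 levels of 12.66, 12.86 and 12.98 in PICs and 8.41, 6.70 and 9.07 in satellite cells, a difference of 4.77 (limma, adjusted p = 0.00104). Tnxb, a tenascin of connective tissue, differed by 4.10, the fibulin Efemp1 by 3.92 and the emilin Emilin2 by 3.80. The 3 genes not called, named after their values were seen, were Mmrn1 (-0.04), Mmrn2 (-0.03) and Mfap3 (0.58). Mmrn1 and Mmrn2 encode multimerins, emilin relatives found in platelets and endothelium.

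Lysyl oxidases, which cross-link elastin and collagen, were called higher in PICs in 3 of 3 tested genes, with a median of 2.63. Lox had log2 levels of 12.37, 12.50 and 12.26 in PICs and 9.70, 9.35 and 10.19 in satellite cells, a difference of 2.63 (limma, adjusted p = 0.000328). Loxl3 differed by 2.92 and Loxl1, the isoform tied to elastic fibre upkeep in mice, by 1.97. Latent TGF-beta binding proteins, which tether the growth factor to microfibrils, were called higher in PICs in 1 of 3, with a median of 0.67. Ltbp4 had 13.03, 13.14 and 11.74 in PICs and 10.79, 11.75 and 11.26 in satellite cells, so that PIC array 3 overlapped the satellite arrays. Its difference of 1.37 (limma, adjusted p = 0.0399) was not called without PIC replicate 1 or 2 or without any 1 of the satellite replicates (adjusted p = 0.0511 to 0.124), nor when all probe sets were tested without a filter (adjusted p = 0.158). Ltbp3 (0.67) and Ltbp1 (-0.34), named after their values were seen, were not called.

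Among ADAMTS and ADAMTS-like genes, several of which encode secreted proteins that bind fibrillin, 6 of 8 were called higher in PICs and 1 lower. Adamtsl2 and Adamtsl5 passed the filter through PICs alone; the median difference was 3.31 as fitted and 2.81 with these genes at their bounds. Adamtsl2 was at the low value level or under it on all satellite arrays and at least 18.6-fold higher in PICs, and Adamtsl5 at least 8.58-fold. Adamtsl3 and Adamtsl1 differed by 4.73 and 4.45. Thsd4, which encodes an ADAMTS-like protein that promotes fibrillin microfibril assembly, ran the other way. Its log2 levels were 5.73, 5.78 and 5.93 in PICs and 8.80, 9.38 and 9.50 in satellite cells, a difference of -3.41 (limma, adjusted p = 0.000142). Adamts6, named after its values were seen, was called at 1.42 (limma, adjusted p = 0.0181), but not without satellite replicate 2 (adjusted p = 0.0526), without a filter (adjusted p = 0.088) or with an offset of 16 before log2 (0.98). Adamts10, named after its values were seen, was not called at 0.73, and without PIC replicate 3 it was called at 1.30 (limma, adjusted p = 0.00424).

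Integrin subunits that bind fibrillins or fibulins were called higher in PICs in 3 of 8 genes, with a median of 0.72, and limma called 0 lower (1 at an unadjusted p under 0.05, Itga8). Itgb3, the partner of the alpha-v subunit in a receptor for matrix ligands, differed by 5.38, with satellite levels of 4.39, 2.81 and 3.70 around the low value level, so that the size is uncertain. Itgb5 differed by 2.97, and Itga9, which passed the filter through PICs alone, was at least 3.22-fold higher in PICs. Itgav itself was at 0.94, under the 2-fold threshold (95% interval 0.58 to 1.30), and without satellite replicate 3 at 1.05, past it. The others not called, named after their values were seen, were Itgb8 (0.50), Itgb1 (0.44), Itga5 (0.37) and Itga8 (-0.43). Itgb1 and Itga8 missed a call only on the 2-fold threshold (limma, adjusted p = 0.0303 and 0.0466).

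Proteases able to degrade elastin were called higher in PICs in 4 of 6 genes, with a median of 1.49, and limma called 0 lower (0 at an unadjusted p under 0.05). Ctsk, a cathepsin with elastase activity, differed by 3.69, and the membrane protease gene Mmp14 by 2.26. Mmp2 differed by 1.55 and Ctsl by 1.44. The other two, Mmp9 (0.80) and Ctss (-0.28), named after their values were seen, spread widely among arrays of the same population. Secretory genes and genes of human disorders of elastic tissue such as cutis laxa were called higher in PICs in 3 of 8 and lower in 1. In limma 2 were lower at an unadjusted p under 0.05, and the median log2 difference was 0.47. Pcsk6, a proprotein convertase, differed by 2.94, the proline synthesis gene Aldh18a1 by 1.88 and the sugar transporter gene Slc2a10 by 1.29. Atp6v1a, a subunit of the vacuolar proton pump, differed by -1.57. Furin (0.73), Lemd3 (0.20), Atp6v1e1 (0.03) and Atp6v0a2 (-0.89), named after their values were seen, were not called. Furin and Atp6v0a2 missed a call only on the 2-fold threshold (limma, adjusted p = 0.0293 and 0.00279).

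**Figure D5:**
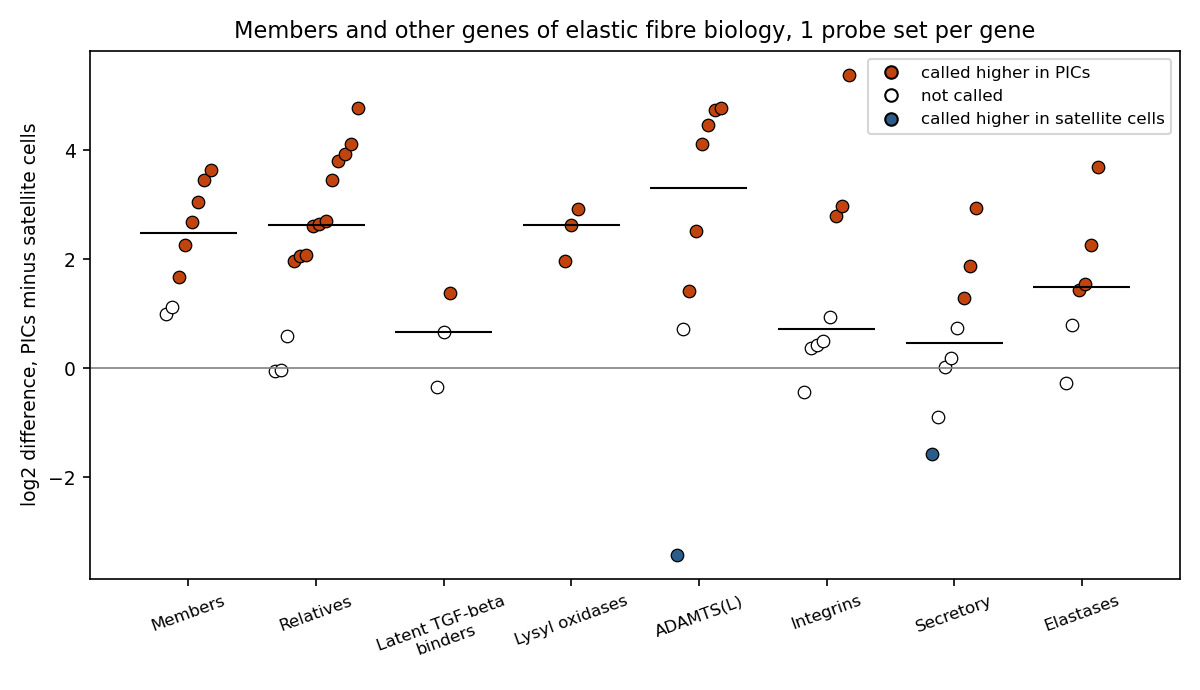
Log2 difference, PICs minus satellite cells, on the y axis for members and 7 lists of related genes, 1 probe set per gene; orange points were called higher in PICs, blue points higher in satellite cells, open points in neither direction, and lines are medians of the fitted differences. Called genes lie above 0 in every list, apart from Thsd4 at -3.41 and Atp6v1a at -1.57.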

How the data were processed

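Values were deposited by the authors as linear intensities, 1 per probe set and array, in whole numbers from 2 upwards. Per the submitters' processing notes they come from GCRMA, with no version given in the sources used here; it corrects background by probe sequence and quantile normalizes arrays. Rounding coarsens the lowest values on the log2 scale. Scanner files and scan dates were not used, so no batch could be tested, and 3 arrays per population limit the precision.

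Probe sets were named from the platform annotation, with 34945 having 1 symbol, 932 several and 9160 none listed; 34741 symbols were updated by gene number against RefSeq (GRCm38.p6). Values were taken to log2, filtered (above 4 on at least 3 of 6 arrays) and fitted with limma 3.58.1 in R 4.3.3 (lmFit and eBayes, two-sided, no block), with Benjamini-Hochberg adjustment over 18433 probe sets. The script was tested on simulated data. Genes taken with 1 probe set keep the values of this fit. "At least" folds set the low population to 4.

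Members and lists were chosen with earlier results of these data known. Text names every member, up to 4 called genes of largest difference per list and direction, the 3 profiles nearest to Eln, and, after their values were seen, genes not called and marker genes. Alternatives covered the filter, an offset, normalization, variance models, a replicate block, left-out replicates and the handling of several probe sets. The 3 planned ratios and the nearest profiles that involve Fbn1 or Efemp2 were not run.

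Replicate numbers are shared by both populations without a stated meaning. Deviations from the population means over 10855 genes correlated at 0.623, 0.222 and 0.579 for equal numbers and from -0.568 to 0.0363 for unequal ones. The deviations of a gene cancel out within a population, so positive values at equal numbers pull those at unequal numbers down. The contrast is therefore not independent evidence, and the pairing comes from the data alone.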

Additional observations from a re-analysis of the deposited data

How the results depend on the processing

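Of the 162 values of the 10 called member probe sets under 17 alternatives, 159 were again called higher in PICs, with differences from 0.89 to 4.14; the other 3 were Emilin1 on probe set 1431834_a_at, at 0.99 with an offset of 16, 0.95 without PIC replicate 2 and 0.89 without satellite replicate 1. With the replicate number as a block, 10 of 13 member probe sets were called higher in PICs and 0 lower, as without it, 5354 of all probe sets were called, and no member or pathway call changed. Left-out replicates gave 9 to 12 member probe sets and 29 to 32 pathway genes called higher in PICs. Of all probe sets, 4671 to 5279 were then called in either direction. With 1 probe set per gene, where fewer features are tested, 6 of 8 members and 3230 of 10855 genes were called, and with the mean of a gene's probe sets 7 of 8 members and 3219 genes. Array weights, which weight down arrays that depart from their population, called 13 of 13 member probe sets higher in PICs, and 3194 of all 18433. Eln was then at 1.73 and 1.92, and Emilin1 on probe set 1416414_at at 1.15. Emilin1 on that probe set was also called at 1.00 with median centring, 1.07 without PIC replicate 1, 1.10 without satellite replicate 3, 1.09 without both arrays numbered 3 and 1.01 with the mean of its probe sets. Without both arrays numbered 3 Eln was called at 1.71 and 2.73. Some values turned sign, none of them called in the fit reported. When 1 replicate was left out, the difference in the ratio of Eln to Emilin1 ranged from -0.41 to 0.91 and that of Mfap2 to Mfap4 from -0.011 to 0.33. Among pathway genes Mmrn1 ranged from -0.61 to 0.63, Mmrn2 from -0.42 to 0.46, Ctss from -1.58 to 1.01, Itga5 from -0.19 to 0.83, Mmp9 from -0.16 to 1.93 and Atp6v1e1 from -0.043 to 0.082. Without both arrays numbered 3 the ratio of Mfap2 to Mfap4 was at -0.080, Mmrn1 at 0.69, Mmrn2 at 0.41, Ctss at 0.13 and Atp6v1e1 at -0.035. With mean probe sets the ratio of Mfap2 to Mfap4 was at -0.28. With array weights 35 of 50 pathway genes were called higher in PICs, among them Mmrn1 (1.43), Mmp9 (1.57), Adamts10 (1.12) and Itgav (1.01), with Mmrn2 at 0.29 and Ctss at 0.32. Adamts10 was also called without both arrays numbered 3 (1.14). Calls lost were those of Ltbp4 and Adamts6, as given above, and of Ctsl with mean probe sets (0.99). The cause of these changes was not tested. The 3 probe sets that did not pass the filter carry no measured level in satellite cells.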
